A study of Mus musculus with 605 samples.

Results

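Bulge stem cells of wild-type mice were compared at postnatal day 56 (P56), when dorsal hair follicles rest in telogen, and at postnatal day 30 (P30), when they grow in anagen. The cells were all single-cell columns that the labels place in the wild-type bulge groups of these ages. Following the limits of the study, a cell had to sum to 750000 TPM or more, hold no more than 20% of it in mitochondrial transcripts, and have between 2000 and 7000 genes above 0. TPM is transcript abundance scaled to a common total per cell. This kept 83 of 92 P56 cells and 84 of 91 P30 cells, so 167 of the 605 cells of the series.

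Per the study, keratinocytes of dorsal skin from K14-H2B-GFP mice, in which the keratin 14 promoter drives a nuclear green reporter, were sorted for the reporter, surface CD34 and low P-cadherin. The labels of the P56 cells name the genotype as wild type, whereas the P30 cells carry age and group in their titles alone. Each cell was caught in a microfluidic chamber and its full-length cDNA was sequenced. No label names a mouse, and the titles give age and well without a plate. Each age has 1 table and is treated as 1 sample. It is called a plate here, which is inferred from the well names. No test between the ages was possible, and age, hair cycle phase and plate cannot be told apart. SDs are over cells, and shares of cells carry exact Clopper-Pearson 95% intervals that cover the counting of cells only. For a count of 0 the limit given is 3 cells of the total, which bounds cells with a detected transcript and not cells that express the gene.

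The bulge is the part of the outer root sheath where hair follicle stem cells sit. In telogen these cells are held quiescent, with BMP signalling known as a brake and WNT, FGF and hedgehog signals known to accompany the start of a new anagen. Immediate early genes encode transcription factors and feedback regulators that are transcribed within minutes of growth factor signalling or stress, without new protein synthesis. Cell dissociation is known to induce them, which makes them a standard caution in single-cell data.

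The promoters of 7 of the 9 immediate early genes that differed by 1 or more on the log2 scale are shown first, since many of the results turn on this list. Sequences are 150 bases before the RefSeq transcription start on build GRCm38.p6, 5′ to 3′ on the strand of the gene. Capitals mark TGACG, the core of the cAMP response element, on either strand, the TATA box TATAAA in Fos and the CArG box, the binding motif of serum response factor, in Zfp36, and Jun holds none of the motifs searched. They lie at chr12:85473740-85473889 (Fos, plus strand), chr7:19310046-19310195 (Fosb, minus), chr4:95052223-95052372 (Jun, minus), chr8:84978749-84978898 (Junb, minus), chr1:191183334-191183483 (Atf3, minus), chr7:28379229-28379378 (Zfp36, minus) and chr15:101266696-101266845 (Nr4a1, plus).
Fos: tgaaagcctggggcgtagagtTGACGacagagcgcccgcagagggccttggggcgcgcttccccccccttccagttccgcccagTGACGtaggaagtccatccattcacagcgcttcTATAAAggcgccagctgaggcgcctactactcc
Fosb: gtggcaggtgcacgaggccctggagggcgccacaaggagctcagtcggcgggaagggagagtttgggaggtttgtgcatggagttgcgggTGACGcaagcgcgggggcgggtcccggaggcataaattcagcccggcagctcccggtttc
Jun: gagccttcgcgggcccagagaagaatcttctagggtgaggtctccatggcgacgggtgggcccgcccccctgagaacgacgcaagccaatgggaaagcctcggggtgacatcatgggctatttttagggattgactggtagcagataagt
Junb: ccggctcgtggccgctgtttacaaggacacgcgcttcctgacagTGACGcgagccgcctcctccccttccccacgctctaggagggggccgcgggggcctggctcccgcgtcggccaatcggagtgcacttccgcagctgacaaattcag
Atf3: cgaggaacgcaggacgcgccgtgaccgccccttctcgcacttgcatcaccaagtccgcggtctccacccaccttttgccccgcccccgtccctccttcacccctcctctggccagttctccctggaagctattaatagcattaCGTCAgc
Zfp36: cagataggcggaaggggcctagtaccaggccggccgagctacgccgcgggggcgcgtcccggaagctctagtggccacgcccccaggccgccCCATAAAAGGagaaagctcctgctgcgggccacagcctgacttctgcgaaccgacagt
Nr4a1: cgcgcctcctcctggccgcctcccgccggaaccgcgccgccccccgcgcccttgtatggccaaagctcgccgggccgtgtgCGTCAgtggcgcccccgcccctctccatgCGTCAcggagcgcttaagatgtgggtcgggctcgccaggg
On either strand, TGACG was found in 6 of the 17 immediate early genes in the promoter table and in 13.5% of all 27025 promoters. The whole cAMP response element TGACGTCA, which contains TGACG, was found in Dusp1 alone of the 17 and in 1.44% of promoters. A CArG box was found in 1 of 17 and in 0.884%, the AP-1 site TGANTCA in 0 of 17 and in 4.27%, the E-box CACGTG in 3 of 17 and in 4.3%, and TATAAA in 1 of 17 and in 8.08%. In the Fos promoter TGACG began 129 and 66 bases before the start and TATAAA 33 bases before it. The CArG box of Zfp36 began 58 bases before its start. These matches are letters in the window and do not show binding.

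The plates differed in more than age. The kept P56 cells had a median of 4271 genes above 0 (lowest 2205, highest 6817) and the P30 cells 3191.5 (lowest 2336, highest 5650). Mitochondrial genes held a median of 4.50% of TPM at P56 and 8.40% at P30. TPM keeps no read counts, so the depth of each cell is unknown. Among genes found in 90% of cells or more, the median difference between ages went from -0.36 in the eighth with the lowest GC content to 0.45 in the eighth with the highest. The predicted gene Gm10260 was detected in 91 of 92 P56 cells, in 8 of 91 P30 cells and in 7 of 94 mutant bulge cells of P56, all without limits on cells. Over the kept cells its difference between ages was 3.84, the largest of any gene in either direction. No cell had values identical to another.

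Keratin genes marked both plates as keratinocytes, and the sort marker Cd34 was rarely detected. At a TPM of 1 or more, Cd34 was found in 8 of 83 P56 cells and 10 of 84 P30 cells. Krt5, Krt14 and Krt15 were detected together in 79 P56 cells and 58 P30 cells. Marker sets of cell lineages were also ranked in each cell, without the bulge, inner bulge and sex-linked sets. The keratinocyte set was the highest in 72 P56 and 76 P30 cells. Sets of differentiating epidermis, upper follicle and hair germ were among its rivals, so the other 11 and 8 cells can be keratinocytes too.

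Sox9 and Lhx2, transcription factors of bulge stem cells, divided each plate. Sox9 or Lhx2 was detected in 44 of 83 P56 cells (53%, interval 41.7 to 64.1) and in 39 of 84 P30 cells (46.4%, interval 35.5 to 57.6). Ly6a, which encodes Sca-1, a surface protein known from the basal epidermis and upper follicle and not from the bulge, followed the opposite pattern. It was detected in 7 of the 44 P56 cells and 5 of the 39 P30 cells with Sox9 or Lhx2, against 30 of 39 P56 cells and 37 of 45 P30 cells with neither. Krt77 was detected in 4 cells of each age with Sox9 or Lhx2 and in 22 P56 and 24 P30 cells with neither. The 4 inner bulge markers were Krt6a, Krt75, Krt80 and Chit1. Of cells with at least 2 of these 4 at a TPM of 10 or more, 33 of 35 at P56 and 25 of 29 at P30 had neither factor. Krt6a alone was also detected in P30 cells with Sox9 or Lhx2, as given below. Krt15, the keratin most used to mark bulge cells, was at a TPM of 10 or more in 39 of 39 P56 and 43 of 45 P30 cells with neither factor. The bulge markers therefore did not go one way in these cells, and they are called by that rule here. The division was chosen after the data were seen, it is a range and not a cell type, and a cell can lack both genes through missed transcripts.

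Krt15 set the P30 cells with Sox9 or Lhx2 apart from those of P56. At a TPM of 10 or more it was present in 43 of 44 P56 cells and 18 of 39 P30 cells with Sox9 or Lhx2, while the other 21 P30 cells had at most 1.81 TPM. Those 21 cells had detectable Krt14 in 21, Krt17 in 20 and Krt6a, a keratin known from the inner bulge and companion layer, in 13, and 1 of them had Cd34. The 18 P30 cells with Krt15 had Krt6a in 4 and Cd34 in 6. Some results are therefore also given for the Sox9 or Lhx2 cells with Krt15 (43 P56 and 18 P30 cells). Other counts for the class cover all 39 P30 cells, 21 of which lacked Krt15 at a TPM of 10. How far this bears on those counts was not tested.

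Levels were compared as mean log2(TPM per 10,000 + 1), P56 minus P30, where each cell's TPM was scaled to a total of 10,000. A difference of 1 is close to 2-fold for well expressed genes and understates the change of low ones. Of 9856 genes that reached 10% of cells at either age, 74 were higher at P56 by 1 or more (0.751%) and 42 were higher at P30 (0.426%), with a median of 0.047 over all genes. By any amount, 7009 genes (71.1%) were higher at P56, and counts of list members higher at P56 are to be read against that share. Centred on genes of like GC content and level, 51 of the 74 and 30 of the 42 still passed 1, and in a least squares adjustment for genes detected and the immediate early mean 43 and 33 did. On the log2(TPM + 1) scale the median of all genes shifted to 0.53 and the counts were 2452 and 241, and relative to the median gene on the main scale they were 63 and 49. Of the 74 genes, 9 were immediate early genes, 21 encoded ribosomal proteins and 11 were predicted genes or pseudogenes. Of the 42, 4 were mitochondrial and 1 encoded a ribosomal protein.

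**Figure D1:**
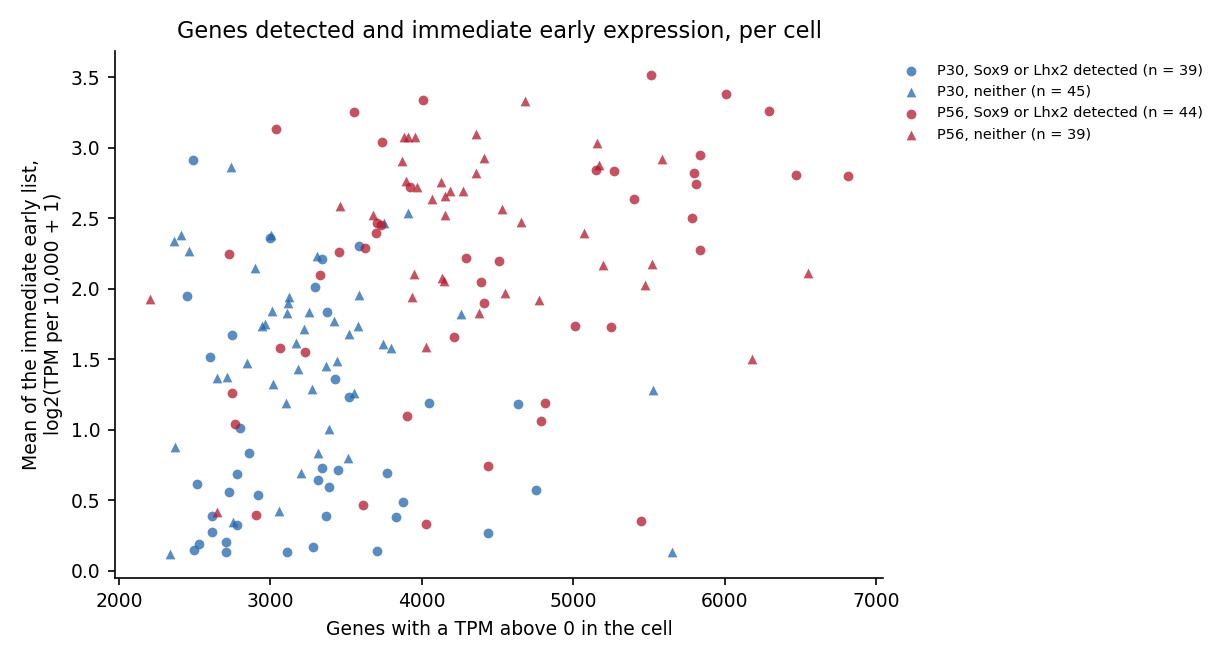
Each point is a cell, with the number of genes above 0 on the x axis and the mean of the 20 immediate early genes, log2(TPM per 10,000 + 1), on the y axis. Red is P56 and blue P30, with circles for cells with Sox9 or Lhx2 and triangles for cells with neither. The immediate early mean had a median of 2.45 at P56 and 1.3 at P30, and 16 P56 cells lay above every P30 cell.

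Immediate early genes were higher in telogen cells in both classes of cells. The list mean was 2.27 ± 0.768 (SD over 83 cells) at P56 and 1.26 ± 0.757 (SD over 84 cells) at P30. The P56 cells ran from 0.330 to 3.52 and the P30 cells from 0.121 to 2.91, so the ages overlapped, although 72 of 83 P56 cells lay above the P30 median. In cells with Sox9 or Lhx2 the mean was 2.13 at P56 and 0.912 at P30, and in cells with neither it was 2.43 and 1.56. Within a plate the list mean had little relation to genes detected. Pearson r was 0.272 and Spearman rho 0.209 over the P56 cells, and r was -0.077 and rho -0.001 over the P30 cells. These values describe the cells of 1 plate each.

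Junb, a subunit of the AP-1 transcription factor, ran from 1.14 TPM through a median of 1747 to 5872 TPM at P56 and from 0 through 222 to 2598 TPM at P30. On the scaled values 95.2% of P56 cells lay above the P30 median, and the difference was 2.43. Fos, its partner in AP-1, ran from 0 through 7039 to 32901 TPM at P56 and from 0 through 1556 to 14412 TPM at P30. The Fos difference of 2.17 was uneven, at 3.49 in cells with Sox9 or Lhx2, whose P30 median was 132 TPM, and 1 in cells with neither, whose P30 median was 2832 TPM. Fosb, a further AP-1 subunit, ran from 0 through 350 to 1632 TPM at P56 and from 0 through 8.68 to 250.1 TPM at P30. Its difference was 1.59 over all cells, 1.59 in cells with Sox9 or Lhx2 and 1.67 in the others.

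Egr1, a zinc finger factor induced by MAPK signalling, had medians of 1400 TPM at P56 and 211 TPM at P30, a difference of 1.78. Nr4a1, an orphan nuclear receptor, had medians of 819 and 82.4 TPM. Zfp36, which promotes decay of inflammatory mRNAs, had medians of 1260 and 226 TPM, and Atf3, a stress-induced factor, 3429 and 640 TPM. The lowest cell of either age was at 0 TPM for Nr4a1, Zfp36 and Atf3, so their ranges overlapped fully at the bottom. Dusp1, which removes phosphate from MAP kinases, had mean levels of 1526 and 1496 TPM and a difference of 0.56, made of 1.51 in cells with Sox9 or Lhx2 and -0.17 in the others.

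Pairing cells showed how much of the list went with genes detected. Of the list, 20 of 20 genes were higher at P56, and 9 passed 1, with a median of 0.77. In 30 pairs of cells of like gene number the median was 0.86. In 40 pairs of cells of like immediate early mean it was 0.02, which the pairing itself sets for the list as a whole, and the members then separated. Junb kept 1.10, Ier2 0.94 and Fosb 0.65, whereas Zfp36 was at -0.15, Atf3 at -0.87 and Dusp1 at -1.20. In these pairs, P56 cells held relatively more Junb and Ier2 and P30 cells relatively more Dusp1 and Atf3. The pairs also differed in class, with at least 2 inner bulge markers in 12 P56 cells (30%) and 19 P30 cells (47.5%). At P30, Sox9 or Lhx2 cells minus cells with neither, Dusp1 was at -2.52 and Atf3 at -2.33. The part of class in the paired values was not tested.

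**Figure D2:**
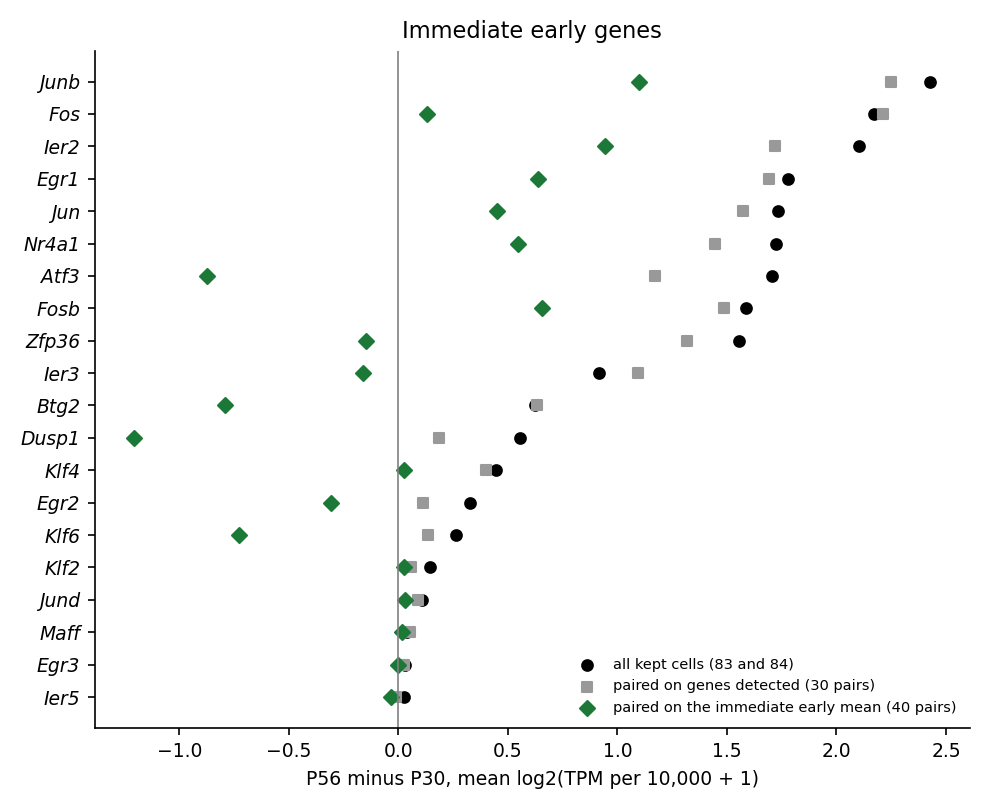
For each immediate early gene the x axis gives P56 minus P30 in mean log2(TPM per 10,000 + 1). Black circles are all kept cells, grey squares 30 pairs matched on genes detected and green diamonds 40 pairs matched on the list mean. Matching on genes detected left Junb at 2.25 and Fos at 2.21, and matching on the list mean left 1.10 and 0.13.

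Some genes named for a large difference over all cells were below 1 in cells paired on both genes detected and the immediate early mean. Socs3, a brake on cytokine signalling, went from 1.80 over all cells to 0.73 in 25 pairs alike in both measures, Ppp1r15a, which reverses stress-induced arrest of translation, from 1.68 to 0.71, and Gadd45b, a growth arrest gene, from 1.40 to 0.55. Irf1, a transcription factor of the interferon response, went from 1.40 to -0.01. Mt2, a metallothionein, had medians of 1109 TPM at P56 and 0 at P30 in cells with Sox9 or Lhx2 and 3106 and 1893 TPM in cells with neither.

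Genes outside the immediate early list were read in cells matched on both measures. In 25 pairs alike in genes detected and in the immediate early mean, 45 of the 74 genes higher at P56 and 34 of the 42 higher at P30 still passed 1. The signs of 3 and 0 of them turned. Over all genes of the 25 pairs, 75 were higher at P56 (0.761%) and 98 at P30 (0.994%). The pairing shifted the classes, since 4 of the 25 P56 cells (16%) and 9 of the 25 P30 cells (36%) had at least 2 inner bulge markers, against 42.2% and 34.5% of all kept cells. The pairs are fewer and chosen cells, so their counts are not a more exact form of those over all cells.

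Crip1, Col17a1, Sod1 and Htra1 were higher at P56 over all cells and in these pairs. Crip1, a LIM domain protein, ran from 0 through 940 to 8518 TPM at P56 and from 0 through 14.1 to 4980 TPM at P30. Its difference was 2.35 over all cells and 3.61 in the pairs. Col17a1, the hemidesmosomal collagen, was detected in 83 of 83 P56 cells, from 10 through 611 to 1905 TPM, and ran from 0 through 127 to 637 TPM at P30. It kept 1.72 in the pairs. Sod1, the cytosolic superoxide dismutase, had medians of 631 and 132 TPM and kept 2.21. Htra1, a secreted serine protease, had medians of 321 and 0.230 TPM and was at 1.43 in the pairs, for which it was named.

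Gpha2, a subunit of the glycoprotein hormone thyrostimulin, and Ptn, the heparin-binding growth factor pleiotrophin, were largely P56 transcripts of the Sox9 or Lhx2 cells. Gpha2 was detected in 32 of 44 such P56 cells (72.7%, interval 57.2 to 85) and 1 of 39 such P30 cells (2.56%, interval 0.0649 to 13.5). Ptn was detected in 42 of 44 and 10 of 39. Bcam, a laminin receptor, Ccdc3 and Eef2, the elongation factor of translation, were named for their differences in the pairs matched on both measures. They were at 1.26, 1.34 and 1.09 there, so these values are not independent of the choice. Krt5, which pairs with keratin 14 in basal cells, had medians of 4200 and 1565 TPM and was at 1.27 in the pairs. Its partner Krt14 had medians of 7224 and 8396 TPM and a difference of 0.21.

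Anagen cells held more Serpinb5, maspin, than telogen cells almost without overlap at the centre. It ran from 0 through 365 to 1957 TPM at P56 and from 0 through 2895 to 15988 TPM at P30. On the scaled values 100% of the P56 cells lay below the P30 median, and the difference was -2.84 over all cells and -3.05 in the pairs matched on both. Tma7, a small protein linked to translation, ran from 0 through 261 to 1592 TPM at P56 and from 4.84 through 1012 to 2855 TPM at P30, a difference of -1.78. Rab11a, a GTPase of recycling endosomes, and Dynll1, a dynein light chain, were at -2.25 and -1.64 in the pairs. Hspb1, a small heat shock protein, had medians of 1954 TPM at P56 and 4996 TPM at P30 and was at -2.38 in the pairs.

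**Figure D3:**
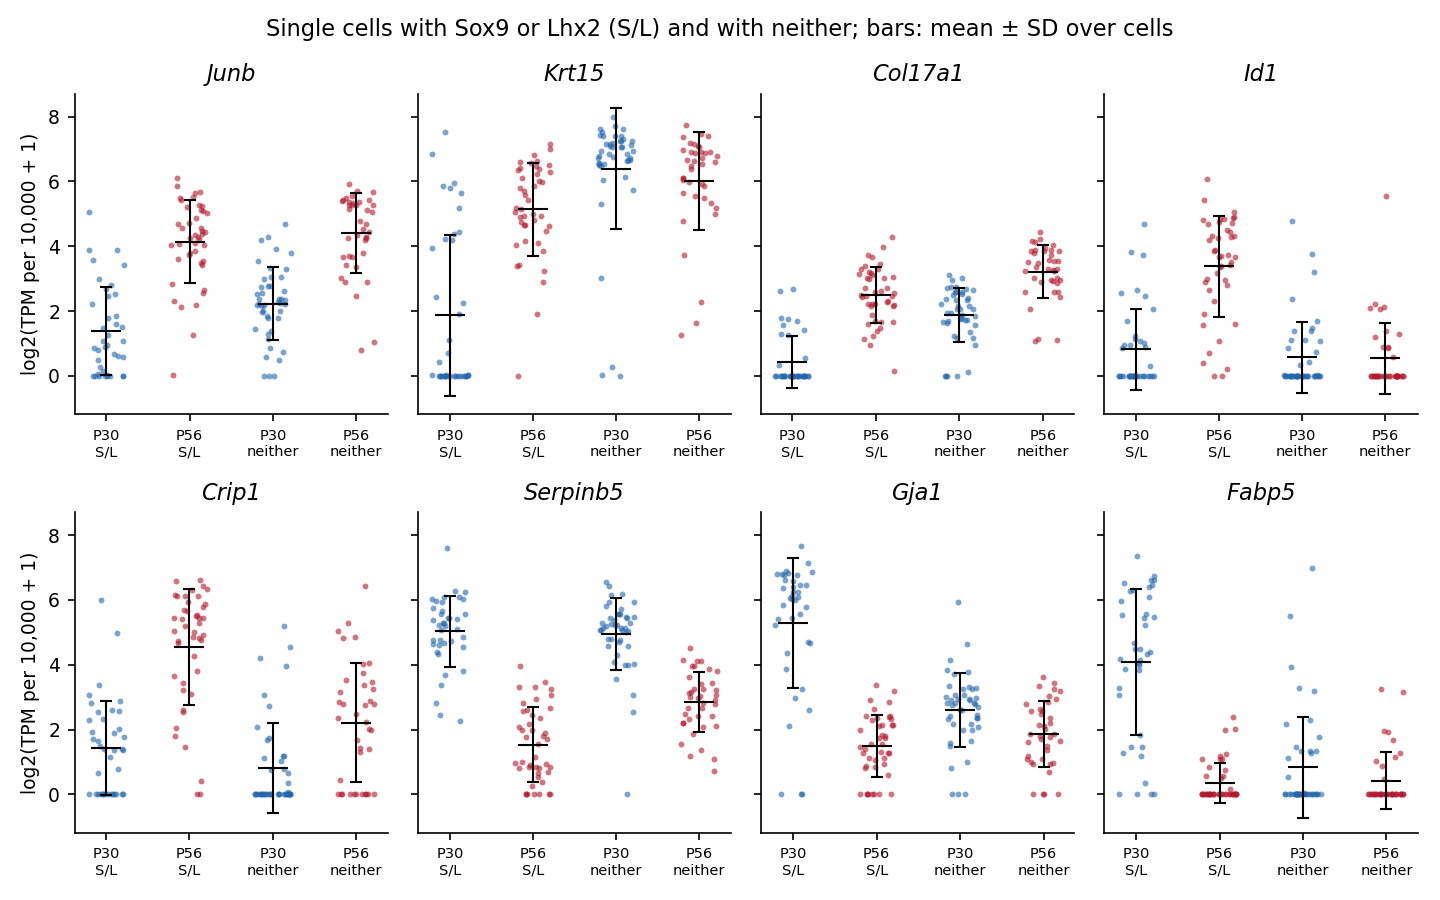
Each point is a cell, on a y axis of log2(TPM per 10,000 + 1), for 8 genes in P30 (blue) and P56 (red) cells with Sox9 or Lhx2 (S/L) and with neither, with bars for the mean ± SD over cells. Serpinb5 was higher at P30 in both classes, whereas the medians of Fabp5 in P30 cells were 1609 TPM with Sox9 or Lhx2 and 0 TPM with neither.

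The difference between the ages was larger in cells with Sox9 or Lhx2. The ages also differed in Krt15 there, which was below a TPM of 10 in 21 of 39 P30 and 1 of 44 P56 cells. Its part in the counts was not tested. Within this class 134 genes were higher at P56 by 1 or more (1.36%) and 87 at P30 (0.883%). In cells with neither factor 62 were higher at P56 (0.629%) and 23 at P30 (0.233%). Of the genes called over all cells, 63 of the 74 and 34 of the 42 had the larger difference in the Sox9 or Lhx2 class, and 37 and 9 passed 1 in both classes. The immediate early mean differed by less in cells with neither, and whether this accounts for part of the gap was not tested. In the Sox9 or Lhx2 cells with Krt15, 66 of the 74 and 39 of the 42 passed 1.

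**Figure D4:**
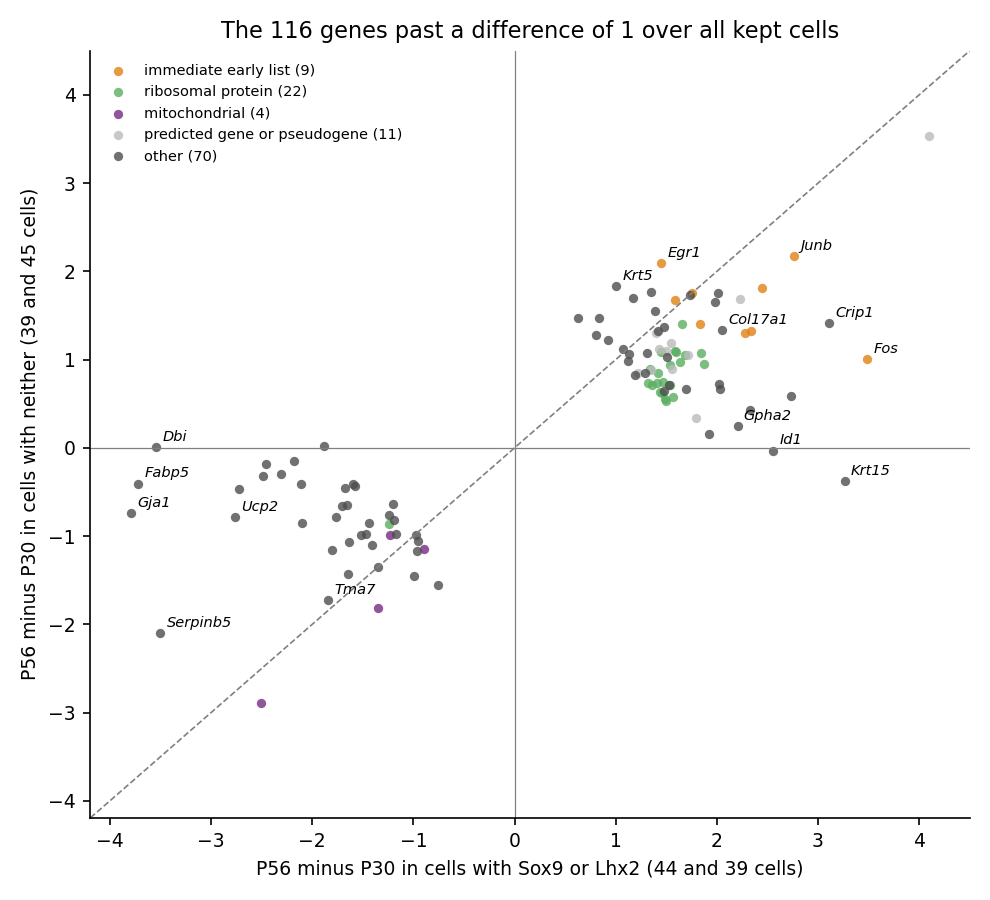
Each point is 1 of the 116 genes past 1 over all kept cells, coloured by kind, with P56 minus P30 in cells with Sox9 or Lhx2 on the x axis and in cells with neither on the y axis, both in mean log2(TPM per 10,000 + 1). The dashed line marks equal differences. Krt15, Id1 and Dbi lie near 0 or past it on the y axis, at -0.38, -0.03 and 0.01, but at 3.27, 2.56 and -3.54 on the x axis.

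Of the genes past 1 over all cells, Gja1, Fabp5, Dbi, Serpinb5 and Ucp2 had the largest differences toward P30 in the Sox9 or Lhx2 cells. Fabp5, a fatty acid binding protein, had a median of 0 TPM in the 44 P56 cells and 1609 TPM in the 39 P30 cells of this class, a difference of -3.72. The difference was -0.40 in cells with neither, where both medians were 0. Dbi, which binds acyl-CoA, had medians of 220 and 3389 TPM in the class, and Insig2, a brake on sterol synthesis, 0 and 834 TPM. Ucp2, a mitochondrial carrier, had medians of 785 and 6198 TPM, and Mgst1, a glutathione transferase of membranes, was detected in 12 of 44 and 33 of 39 cells.

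Gja1, connexin 43, had medians of 162 and 5146 TPM in the class and 235 and 467 TPM in cells with neither, so its difference was -3.79 in the first and -0.74 in the second. Gjb2, connexin 26, had medians of 0 and 882 TPM in the class and was detected in 11 of 44 P56 and 30 of 39 P30 cells. Krt17, a keratin of the outer root sheath, had medians of 1287 and 7619 TPM. Some of these differences were also found between Sox9 or Lhx2 cells with Krt15 at a TPM of 10 or more. There Gja1 was at -2.86, Gjb2 at -2.51, Fabp5 at -2.54, Dbi at -2.76 and Ucp2 at -2.67. Krt15 itself still differed there, at 1.21, and Fabp5 was uneven. On the scaled values, P30 cells with Krt15 at 0.42 and 1.11 had Fabp5 at 6.63 and 6.62. Others with Krt15 at 5.80 and 6.83 had Fabp5 at 0. The P30 cell of this subset with the most Krt15, at 7.53, had Fabp5 at 1.83.

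The list of 6 gap junction genes had a median of -0.17, with 2 members past 1. The 14 desmosome and adherens junction genes had a median of 0.03. Dsp, desmoplakin, was at -0.87, and Pkp3, a plakophilin, at 0.84. Of 20 actin cytoskeleton genes 13 were lower at P56 and 3 passed 1. Myl6, a myosin light chain, ran from 76.1 through 644 to 1363 TPM at P56 and from 367 through 1247 to 5589 TPM at P30. On the scaled values 100% of P56 cells lay below the P30 median of Myl6. Tpm4, a tropomyosin, was at -1.21 and Tmsb4x, which binds actin monomers, at -1.04, but Actb was higher at P56 by 0.83. The actin list median was -0.39 in the Sox9 or Lhx2 cells and 0.05 in the others. Of 13 annexin and S100 genes 9 were lower at P56. Anxa2 was at -1.02 and S100a16 at -1.16, and S100a4 was higher at P56 by 0.72.

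BMP signalling was read from its ligands to its targets. Among 6 ligand and receptor genes that passed the detection minimum, Bmp2 had the largest difference. Its median was 31.8 TPM at P56 and 0 at P30, and it was detected in 62.7% of P56 and 11.9% of P30 cells, and in 19 and 3 cells of the 30 pairs of like gene number. Bmp2 was present in both classes at P56, in 24 of 44 and 28 of 39 cells. Bmp7 was detected in 50.6% and 17.9% of cells. The receptors Bmpr1a and Bmpr2 were at -0.04 and -0.01. The antagonist Nog was detected in 0 of 83 and 0 of 84 cells, and such counts allow shares as high as 3.61% and 3.57%.

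Among the BMP targets, 5 of 6 were higher at P56, with 2 past 1 and a median of 0.32. Id1, an inhibitor of differentiation factors, separated by class. In Sox9 or Lhx2 cells it had medians of 1039 TPM at P56 and 0 at P30 and was detected in 42 of 44 and 17 of 39 cells. In cells with neither it was detected in 12 of 39 and 17 of 45, with both medians at 0. Id3 had medians of 1278 and 0 TPM in the Sox9 or Lhx2 cells and 291 and 154 TPM in the others. Id1 kept 1.47 and Id3 0.67 in the pairs matched on both measures. In the 12 such pairs of Sox9 or Lhx2 cells they were at 1.13 and 0.34. In the least squares adjustment Id1 was at 0.88 and Id3 at 0.16.

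Lef1, Lgr5, Wif1 and Dkk3 of the WNT lists were detected in more P56 than P30 cells with Sox9 or Lhx2, whereas the list medians were small. Lef1, the transcription factor that WNT signals act through, was detected in 29 of 44 such P56 cells (65.9%, interval 50.1 to 79.5) and in 0 of 39 such P30 cells, a count that allows a share as high as 7.69%. It was in 1 of 39 and 0 of 45 cells with neither factor, and in 13 and 0 cells of the 30 pairs of like gene number. Lef1 is also a hair germ marker here, with Cdh3, Msx2 and Gli1, and all 4 were higher at P56. Their summed TPM had a median of 66.6 at P56 and 0 at P30 over all kept cells. Whether hair germ cells were among the P56 cells was not tested. Lgr5, a receptor for R-spondins and a stem cell marker, was detected in 34 of 44 P56 cells (77.3%, interval 62.2 to 88.5) and 6 of 39 P30 cells (15.4%, interval 5.86 to 30.5) of the class. The 6 P30 cells were among the 18 with Krt15. Inhibitors stood beside these genes at P56, with Wif1 in 16 of 44 and 1 of 39 cells and Dkk3 in 29 and 5.

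Wnt3 and Wnt7b, which are ligands, were found mostly in the other class. Wnt3 was detected in 34 of 39 P56 and 30 of 45 P30 cells with neither factor, and in 4 of 44 and 3 of 39 with Sox9 or Lhx2. Wnt7b was detected in 33 of 39 and 12 of 45 cells with neither. The lists had small medians of 0.05 for 18 ligand and receptor genes, 0.06 for 5 inhibitors and 0.12 for 9 targets, and no member passed 1. The ligand and receptor median was 0.01 in Sox9 or Lhx2 cells and 0.07 in the others. Most members were detected in a minority of cells, where a mean on this scale moves little.

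Hedgehog genes, known from hair germ activation, were found at low levels in the telogen class. Gli1, a target and effector of the pathway, was detected in 16 of 44 and 2 of 39 cells with Sox9 or Lhx2, and Gli2 in 21 and 1. In cells with neither factor both genes were detected in 0 of 39 P56 cells, and in 2 and 1 of 45 P30 cells. The ligand Shh was detected in 1 P56 cell and 0 P30 cells. The difference in genes detected between the plates bears on such low genes, and in the 30 pairs of like gene number the counts were 7 and 2 for Gli1 and 8 and 1 for Gli2.

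FGF receptors were higher at P56 throughout the 3 that passed the minimum. Fgfr1 was detected in 37 of 44 P56 and 7 of 39 P30 cells with Sox9 or Lhx2 and in 1 of 39 and 3 of 45 with neither. Fgfr2, the epithelial receptor of Fgf7 and Fgf10, was detected in 81.9% and 41.7% of cells and Fgfr3 in 68.7% and 44%. Fgf5, a ligand known to end anagen, was detected in 0 of 83 P56 and 9.52% of P30 cells. The count of 0 allows a share as high as 3.61%.

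Of 12 MAPK feedback and target genes 11 were higher at P56 and 0 passed 1, and the median was 0.29, which was 0.16 when centred on genes of like GC content and level. Dusp6, which removes phosphate from ERK, had medians of 78 and 0 TPM and a difference of 0.69, and kept 0.92 in the pairs matched on both. Etv4 was detected in 26 of 44 and 2 of 39 cells with Sox9 or Lhx2, and Etv5 in 30 and 3. Phlda1, a gene known from bulge cells, was detected in 40 and 11. The list median was 0.15 in the pairs matched on both measures.

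Notch and TGF-beta genes differed little. Of 8 Notch genes 8 were higher at P56 (median 0.10), led by the ligands Jag2 (0.33) and Dll1 (0.31), and 0 passed 1. Of 10 TGF-beta genes 9 were higher with a median of 0.06, led by Tgfbi, an extracellular matrix target of the pathway, at 0.79.

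Some of the quiescence genes that the study names were chosen on these cells, so the direction of the list is not independent evidence. Of 7 that passed the minimum 7 were higher at P56, and the list median was 0.70 in Sox9 or Lhx2 cells and 0.06 in cells with neither. Tgm5, a transglutaminase, was detected in 29 of 44 and 2 of 39 Sox9 or Lhx2 cells and Ctgf, a matricellular protein, in 29 and 4. Nfatc1, a transcription factor downstream of BMP signalling that restrains cycling, was detected in 22 and 4 of these cells and in 24 and 9 of those with neither. Among other bulge genes, Tbx1 was detected in 34 and 10 and Runx1 in 40 and 14 of the Sox9 or Lhx2 cells. Il31ra, an interleukin receptor gene, was detected in 23 and 0 of them. Nfib, a bulge transcription factor, was detected in 44 and 38 of them and had a difference of 0.06 over all cells.

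Few cells of either age held many G2/M genes. At least 20 G2/M genes were detected in 3 P56 cells (3.61%, interval 0.752 to 10.2) and 3 P30 cells (3.57%, interval 0.743 to 10.1). The medians were 0.02 for 30 S phase genes and 0.03 for 24 G2/M genes, of which Tubb4b, a tubulin with medians of 1028 and 149 TPM, alone passed 1, at 1.82 over all cells and 0.98 in the pairs matched on both. The G1 regulators separated instead. Ccnd2, cyclin D2, had medians of 78.9 TPM at P56 and 399.9 TPM at P30, a difference of -1.32 that was -1.58 in the pairs matched on both. Ccnd3, cyclin D3, ran the other way with medians of 119 and 6.67 TPM and a difference of 0.61, and Ccnd1 was at -0.11. Cdk4, the kinase of D cyclins, had medians of 420.4 and 213 TPM and kept 0.99 in the pairs. In Sox9 or Lhx2 cells Ccnd2 was detected in 15 of 44 and 33 of 39, and Ccnd3 in 39 and 15. Cdkn1a, the inhibitor p21, was at -0.29 over all cells and at -1.82 in the pairs, where its relation to the immediate early mean (Spearman rho 0.54 over P56 cells and 0.27 over P30 cells) was held level.

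Hemidesmosome and basement membrane genes were higher at P56 for 17 of 18, with a median of 0.23 and 1 past 1, and the median was 0.08 when centred on genes of like GC content and level. Beside Col17a1, the tetraspanin Cd151 was at 0.81, the integrin subunits Itgb4 and Itgb1 at 0.53 and 0.43, and Col7a1, anchoring fibril collagen, at 0.45. Npnt, nephronectin, a basement membrane ligand of the bulge, was detected in 26 of 44 and 0 of 39 Sox9 or Lhx2 cells. Tnc, tenascin C, was the lone member higher at P30, in 8 of 44 and 26 of 39 such cells. In the pairs matched on both, 16 of 18 were higher at P56.

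Of 90 measured ribosomal protein genes, 21 were higher at P56 by 1 or more and 1 was higher at P30. Of 30 listed, 28 were higher, with 6 past 1 and a median of 0.78, and 30 of 30 were higher in the pairs matched on both. All 90 measured ribosomal protein genes together held a median of 20.1% of TPM at P56 and 13.1% at P30. Ribosomal pseudogenes that share sequence with them moved the same way, with Rps12-ps3 at 1.38 and Rpl10-ps3 at 1.35, so their separate values are uncertain. Mitochondrial transcripts were lower at P56, with mt-Co3 at -2.68 and mt-Cytb at -1.56, beside the shares of mitochondrial TPM given above.

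Of 32 nuclear oxidative phosphorylation genes 19 were lower at P56, with 2 past 1 and a median of -0.05. Uqcrb, a complex III subunit, was at -1.54 and Atp5l, an ATP synthase subunit, at -1.15, while Cox7c was at 0.46. Of 14 glycolysis genes 11 were higher at P56, and their median of 0.26 was 0.00 in the pairs matched on both. Of 14 fatty acid genes Fabp5 alone passed 1.

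Heat shock genes were mostly lower at P56, and members of the clock list went both ways. Of 12 heat shock and chaperone genes 8 were lower at P56, with a median of -0.30. In the pairs matched on both the median was -0.64, and 2 of the 12 were higher at P56. Hspa1a was at -0.78 and Hspa1b, its near-identical copy, at 0.65, so the split between them is uncertain. Of 15 circadian clock genes 12 were higher at P56 (median 0.08). Nr1d1, the repressor REV-ERB alpha, had medians of 159 and 0 TPM and a difference of 0.97, which was 0.29 in the pairs. No source used here gives the hour of collection.

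Immune genes are given beside markers of other cell types. MHC class II genes were higher at P56 for 6 of 6, with H2-Aa at 0.50 and Cd74 at 0.53. The summed T or NK cell markers reached 9926 TPM in the highest P56 cell and 142 TPM in the highest P30 cell, myeloid markers 10086 and 1205 TPM, and melanocyte markers 15075 and 92.9 TPM. Fibroblast and dermal papilla markers ran the other way, reaching 931 TPM at P56 and 17327 TPM at P30, as did smooth muscle and pericyte markers at 5.91 and 4763 TPM. The median cell was at 0 for each of these 5 sets at both ages. Of the 8 melanocyte markers 8 were higher at P56, of 5 T or NK cell markers 5, and of 8 myeloid markers 6. Of 8 fibroblast and dermal papilla markers 3 were higher at P56, and of 6 smooth muscle and pericyte markers 0. In every P30 cell 3 of the melanocyte, 4 of the T or NK cell and 1 of the myeloid markers were at 0. In every P56 cell 5 of the smooth muscle and pericyte markers were at 0. For such markers 1 cell can set the direction. Without the 8 cells of each plate with most transcripts of other lineages, 74 of the 74 and 38 of the 42 genes still passed 1, and the medians went from 0.29 to 0.16 for MHC class II, 0.35 to 0.36 for MHC class I and 0.44 to 0.47 for NF-kB feedback genes. MHC class I genes had a median of 0.35 that was -0.04 in the pairs matched on both, where the mix of classes had shifted. The MHC class I median was 0.13 in Sox9 or Lhx2 cells and 0.62 in cells with neither. Of 8 NF-kB feedback genes 8 were higher at P56, and their median of 0.44 was -0.05 in the pairs. By class these genes had medians of 0.21 in Sox9 or Lhx2 cells and 0.63 in cells with neither. Among them Icam1, an adhesion molecule, was at 1.35 over all cells and 0.39 in the pairs.

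**Figure D5:**
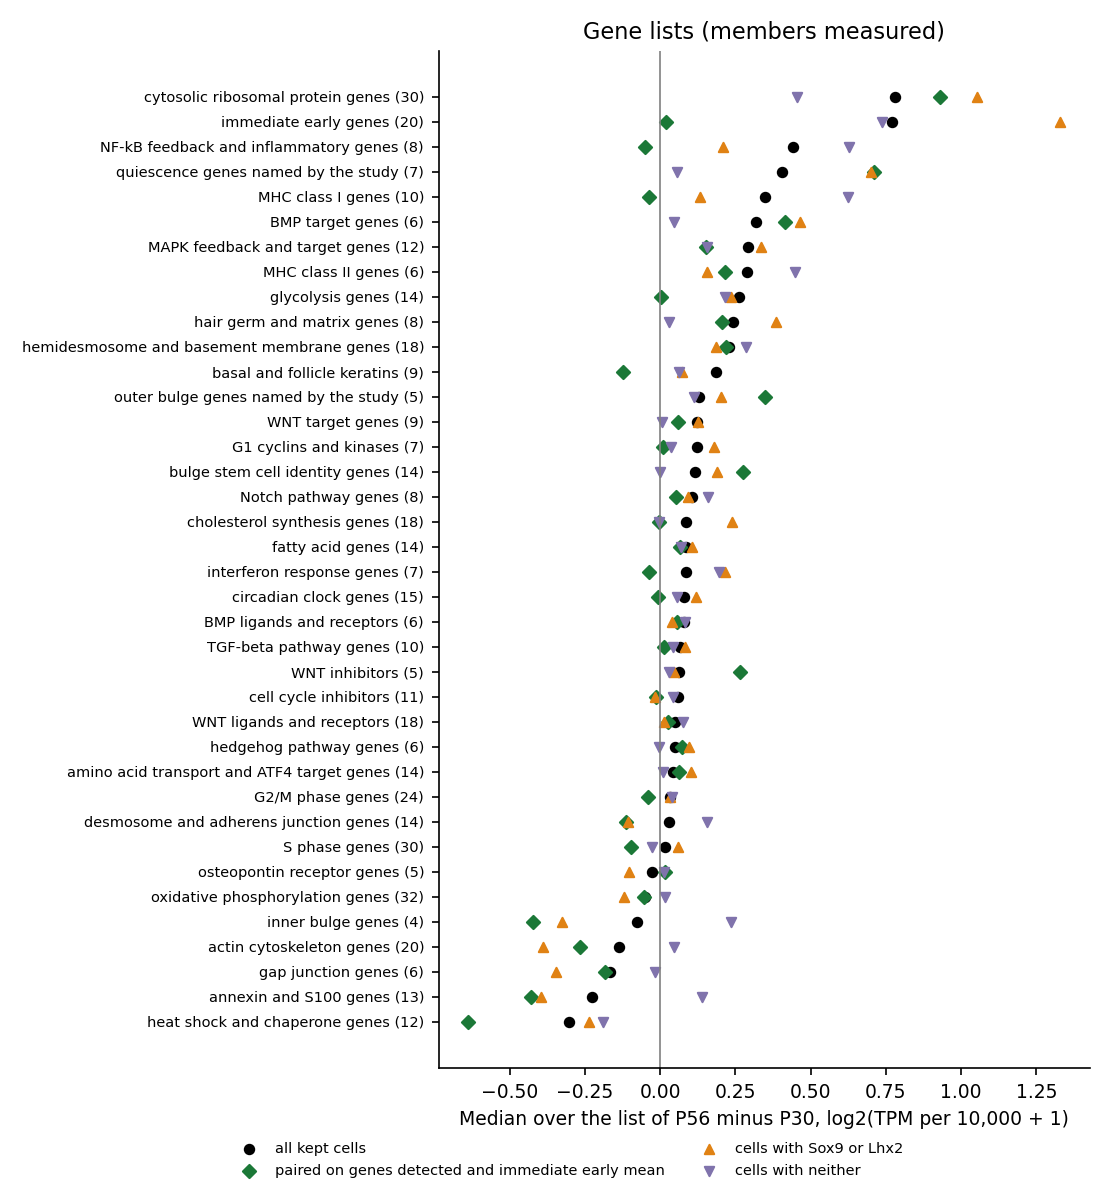
For each of 38 gene lists the x axis gives the median over members of P56 minus P30 in mean log2(TPM per 10,000 + 1), with the number of measured members in brackets. Black circles are all kept cells, green diamonds 25 pairs matched on genes detected and the immediate early mean, orange triangles cells with Sox9 or Lhx2 and purple triangles cells with neither. The quiescence median was 0.70 in cells with Sox9 or Lhx2 and 0.06 in cells with neither, and the NF-kB median went from 0.44 to -0.05 in the pairs.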

How the data were processed

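Single bulge cells of wild-type mouse skin were compared between P56 and P30. Per the methods and the submitters' notes, the authors used STAR 2.4.2 for alignment to GRCm38 (mm10) and quantified genes with RSEM. The deposited values are TPM, although the study's methods also name FPKM for them. TPM keeps no counts, so depth per cell is unknown. The labels name Smart-seq2, and the methods a microfluidic SMARTer protocol.

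Of 31002 identifiers, 38 symbols with several were averaged, leaving 30959. TPM values were scaled to 10000 per cell and taken as log2(value + 1). A gene was detected at TPM 1 or more. With 1 sample a group, called means a difference of at least 1. Genes detected in at least 10% of either group's cells entered counts, and 25% those named. Named were the 20 largest differences in each direction (no mitochondrial, ribosomal protein, predicted, sex-linked genes or pseudogenes), the 15 in each direction largest in cells matched on both measures among those past 1, and list members, with the 2 to 4 largest of each list, role lists whatever their difference, and markers. Genes by their class detection (Il31ra, Krt77) and the genes of the Sox9 or Lhx2 contrast were chosen after their values were seen. Cells were paired within 5% of genes detected, within 0.25 of the immediate early mean, or within 10% and 0.5. Medians needed 4 members. No cluster or doublet caller was run, and the authors left out chambers with several cells. Members and the 40 lists were chosen with earlier results of these data known. Alternatives were other limits, minimums, scales, pairings, a least squares adjustment and classes of cells. Of the list genes, 2 had no row. Promoters came from RefSeq (GRCm38.p6). Steps were tested on simulated data. Versions were SciPy 1.17.1, pandas 2.3.3, numpy 2.4.6, matplotlib 3.10.9 and Python 3.11.15.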

Additional observations from a re-analysis of the deposited data

How the results depend on the processing

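Under 20 alternatives, 863 of 1099 values of the 55 genes named by the rule moved by less than the set margin, 221 moved more in the same direction and 15 turned sign, and 544, 203 and 8 of 755 list medians did so. The GC centring, the class, Krt15 and dropped-cell alternatives were chosen after seeing the data, and the cause was not tested for any change below. With 1 plate an age, no plate could be left out. No paired analysis was possible because no result comes from a test. Genes higher at P56 and P30 numbered 74 and 42, against 2452 and 241 on log2(TPM + 1), 134 and 87 in Sox9 or Lhx2 cells, 112 and 85 in those with Krt15 and 136 and 140 in their 12 pairs matched on both measures. Those higher at P30 numbered 75 in cells matched on genes, 98 matched on both, 74 by least squares, 73 without inner markers and 23 in cells with neither factor. On log2(TPM + 1) the medians were 2.46 (immediate early), 2.10 (quiescence), 1.31 (BMP targets), 2.2 (MAPK), 0.36 (G2/M) and 0.54 (clock). The immediate early median was 0.020 matched on that list, 0.018 on both, 0.016 by least squares, 1.33 in Sox9 or Lhx2 cells and -0.00051 in their pairs. Matched on both, medians were 0.71 (quiescence), 0.15 (MAPK), -0.27 (actin), -0.052 (NF-kB) and -0.036 (MHC class I). In the Sox9 or Lhx2 pairs they were 0.81 (quiescence), 0.077 (BMP targets), 0.12 (MAPK), -0.27 (actin), -0.30 (MHC class I) and -0.0066 (MHC class II). By least squares they were 0.15 (BMP targets), 0.12 (MAPK) and -0.27 (actin), and centred on GC content 0.16 (MAPK) and -0.34 (actin). In inner-marker cells they were 0.083 (quiescence), 0.14 (BMP targets), 0.16 (MAPK), 0.021 (gap junction), 0.062 (actin), 0.13 (annexin and S100) and 0.43 (ribosomal), and without inner markers 0.65 (quiescence) and -0.30 (actin). In cells with neither factor they were 0.057 (quiescence), 0.046 (BMP targets), 0.16 (MAPK), 0.046 (actin), 0.14 (annexin and S100) and 0.46 (ribosomal). In Sox9 or Lhx2 cells they were 0.70 (quiescence) and -0.39 (actin), and in those with Krt15 0.65 and -0.40. The BMP target median was 0.98 at a minimum of 25% of cells and 0.033 with none. Signs turned for Atf3 (-0.87 matched on the immediate early list, -0.83 on both, -1.30 in the Sox9 or Lhx2 pairs, -1.11 by least squares), Zfp36 (-0.15 matched on the list, -0.18 by least squares), Irf1 (-0.011 matched on both), Egr1 and Jun (-0.14 and -0.21 in the Sox9 or Lhx2 pairs), Dbi, Id1 and Dmkn (0.011, -0.031 and 0.019 in cells with neither), and Krt15 (-0.58 in inner-marker cells, -0.38 with neither, -0.29 in cells with Krt15). Unknown read depth limits every share of cells with a low gene.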
